A study of Mus musculus with 35 samples.

Results

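Adgra3 and Pcdh7 are 2 of the 49671 genes in the count table, each held in 1 row, and both were among the 17166 genes abundant enough to test. They were chosen by their measured counts in these libraries: both were higher with each of the 6 NUP98-HOXA9 constructs than with the empty vector. Values against the empty vector are therefore given as a description, without a test. Differences among the constructs played no part in the choice and were tested.

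The libraries are RNA-seq libraries of mouse lin- HSPCs, bone marrow cells depleted of cells with markers of mature blood lineages. NUP98-HOXA9 (NHA9) is a leukemia fusion protein that joins the phenylalanine-glycine (FG)-rich part of the nucleoporin NUP98, which drives condensate formation, to the DNA-binding homeodomain of HOXA9. There were 7 groups of 5 libraries, and the study asked whether gene expression followed the FG content and DNA binding of the constructs. The cells came from male and female C57Bl/6 mice, were transduced with lentivirus, sorted for vector fluorescence, and cultured in Methocult M3434, a methylcellulose medium with blood growth factors, plus 10 ng/mL GM-CSF for 1 week.

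All groups therefore share the C57Bl/6 background, lentiviral delivery and the culture. The sort differed: empty vector cells were taken for mCherry alone, and construct cells for both mCherry and mEGFP. This difference runs with every comparison against the empty vector, and its part in them was not tested. The control group carried the empty vector (label Empty). G-NHA9 is the full-length fusion with an mEGFP tag, which every construct carries (the labels write NHX9 for NHA9). G-NHA9-8FA has phenylalanines of FG motifs in the C-terminal part of the NUP98 region replaced by alanine. G-NHA9-21FGAA has the FG pairs of that part replaced by alanine pairs. G-NHA9Midi (label G-NHX9-midi) keeps the C-terminal FG part, without the GLEBS domain, and G-NHA9Midi-21FGAA carries the 21FGAA change within it. G-NHA9-DDNA is the full-length fusion with homeodomain mutations that weaken DNA binding. The mice are labelled as 8 weeks old, except those of empty vector library 4 at 9 weeks, empty vector library 5 at 10 weeks and G-NHA9 library 1 at 11 weeks. The construct was delivered by the vector at levels that these counts do not measure, and the cultures hold several blood lineages. Fewer cells of a type and less RNA per cell cannot be told apart in such bulk samples. The labels do not say whether the 5 libraries of a group came from separate mice or cultures, so the tests measure the spread between these libraries, which may be technical. The methods describe transduction in triplicate, which does not match the number of libraries in a group, and the ages are as labelled and could not be checked.

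Adgra3 (formerly Gpr125) encodes an adhesion G protein-coupled receptor, a membrane receptor with a long extracellular part for contact with neighbouring cells or matrix. It has been linked to planar cell polarity through Dishevelled proteins and binds the scaffold Dlg1, and it is used as a marker of spermatogonial progenitors. Pcdh7 encodes a non-clustered protocadherin, a cadherin-like adhesion molecule whose cytoplasmic tail binds protein phosphatase 1 and the protein SET, an inhibitor of protein phosphatase 2A. Neither is a classical blood lineage marker.

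Both genes lie on mouse chromosome 5 (build GRCm38, annotation GENCODE M21), with 7.66 Mb between their nearest ends. Adgra3 (ENSMUSG00000029090.12) runs on the minus strand from 49959956 to 50059006, with 7 annotated transcripts of which 1, with 19 exons, is protein coding. No other annotated gene overlaps it. Pcdh7 (ENSMUSG00000029108.14) runs on the plus strand from 57717967 to 58133230, with 7 transcripts of which 6 are protein coding. Its span of 415.3 kb holds only 10.60 kb of exon, against 8.11 kb of exon in the 99.1 kb of Adgra3. The antisense transcript 4932441J04Rik shares 2235 exon bases with Pcdh7.

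The stretches just before the annotated starts are shown because both genes were higher with every construct, to set their starts side by side. They come from RefSeq promoter windows (GRCm38.p6), are written 5′ to 3′ on the strand of the gene, and have CpG dinucleotides in capitals. The Adgra3 stretch is chr5:50059007-50059246 (minus strand, 240 bases) and the Pcdh7 stretch is chr5:57717831-57717966 (plus strand, 136 bases).
Adgra3: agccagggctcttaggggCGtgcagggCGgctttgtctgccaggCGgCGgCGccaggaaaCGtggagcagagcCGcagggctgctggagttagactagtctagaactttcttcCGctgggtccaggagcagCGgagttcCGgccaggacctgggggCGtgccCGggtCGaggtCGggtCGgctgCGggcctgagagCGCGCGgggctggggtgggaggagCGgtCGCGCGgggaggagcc
Pcdh7: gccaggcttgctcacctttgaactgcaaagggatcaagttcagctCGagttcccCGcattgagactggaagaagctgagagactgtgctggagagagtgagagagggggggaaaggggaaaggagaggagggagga
The full windows of 300 bases differed in composition. That of Adgra3 was 74% GC with 34 CpG, and 95.2% of 32851 promoter windows held less GC. That of Pcdh7 was 59.3% GC with 11 CpG, and 68.9% of windows held less GC. The Pcdh7 window held an unbroken run of 88 purines, from its base 99 to its base 186, and only 12 of all windows held a run as long or longer. The HOX-type motifs TTTAT and TTTAC, the MEIS motif TGACAG and the PBX motif TGATTG, searched on both strands, were in neither window; TTTAT and TTTAC share their first letters. They are in 40%, 31.5%, 19.2% and 14% of all windows. The absence of these letters from the windows says nothing of where such factors bind.

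Library totals ranged from 31559914 to 75810659 counts. Adgra3 had 192 to 1802 counts in a library and Pcdh7 375 to 3367. Values are CPM, which are read counts scaled to a common library size, here with the TMM correction. Libraries of 1 group fell apart by number for these genes. Library 5 of G-NHA9Midi-21FGAA was far above the other 4 for both genes, and libraries 4 and 5 of G-NHA9 and G-NHA9-21FGAA were above libraries 1 to 3 for Adgra3. Transcripts of Y-linked genes also differed by number, with medians of 61.4, 43.3 and 42.2 CPM in libraries 1, 2 and 3 and of 27.8 and 28.9 CPM in libraries 4 and 5, and what the number stands for is not given in the labels. Calls between constructs that changed in fits to part of the libraries are given with the values of those fits.

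Adgra3 was low and even in the control cultures and higher in every construct library. With the empty vector, libraries 1 to 5 had 6.43, 6.08, 6.31, 7.20 and 5.88 CPM. With G-NHA9 they had 17.9, 15.3, 19.2, 27.6 and 27.8 CPM. With G-NHA9-21FGAA they had 15.4, 17.7, 16.0, 25.4 and 38.8 CPM. In both of these full-length groups the highest 2 values came from libraries 4 and 5, and every value was above the highest control value of 7.20 CPM. With G-NHA9Midi the libraries had 16.3, 15.5, 16.8, 14.2 and 17.2 CPM, which overlapped only with libraries 1 to 3 of these 2 groups.
With G-NHA9-8FA they had 11.6, 13.7, 13.4, 11.1 and 11.7 CPM. G-NHA9-DDNA, the construct with weakened DNA binding, stood at nearly the same level, with 12.4, 13.3, 12.9, 14.1 and 11.7 CPM. G-NHA9Midi-21FGAA had 9.17, 11.4, 10.7 and 11.1 CPM in libraries 1 to 4 and 18.0 CPM in library 5.

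Pcdh7 was also present in the control cultures and was highest with the intact fusion. With the empty vector, libraries 1 to 5 had 18.1, 15.5, 16.8, 12.4 and 12.1 CPM. With G-NHA9 they had 71.1, 60.5, 60.3, 65.2 and 72.4 CPM. No library of any other group reached the lowest G-NHA9 value. With G-NHA9Midi the libraries had 44.6, 39.8, 48.3, 41.0 and 33.3 CPM. With G-NHA9-21FGAA they had 33.8, 31.0, 32.2, 47.4 and 42.5 CPM, and libraries 4 and 5 were again the highest. The remaining 3 constructs overlapped one another. G-NHA9-8FA had 26.1, 34.7, 32.2, 22.6 and 20.7 CPM. G-NHA9Midi-21FGAA had 28.2, 25.8, 24.0, 23.0 and 41.9 CPM, and G-NHA9-DDNA had 27.1, 21.6, 28.9, 30.1 and 23.2 CPM. Here libraries 4 and 5 of G-NHA9-8FA were lower than its libraries 1 to 3, the reverse of the order with G-NHA9-21FGAA.

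**Figure D1:**
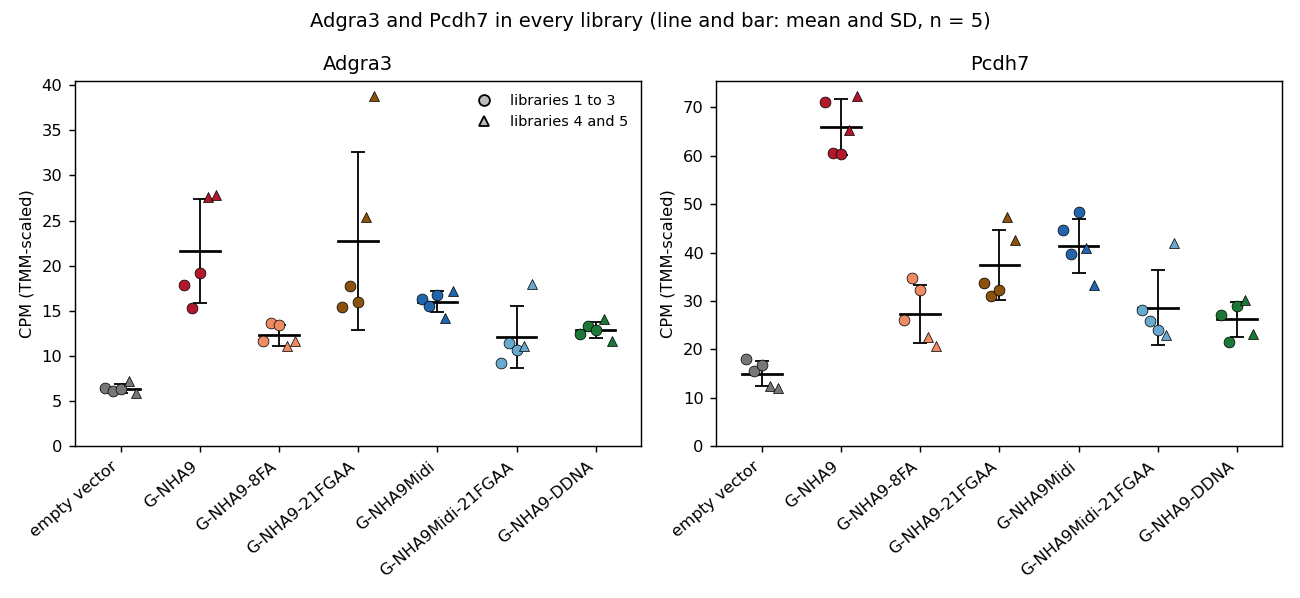
Each point is 1 library, with its TMM-scaled CPM on the y axis and the group on the x axis; circles are libraries 1 to 3, triangles are libraries 4 and 5, and the line and bar give the mean and SD of 5 libraries. All construct points lie above all control points in both panels, and the G-NHA9 points of Pcdh7, at 60.3 CPM or more, stand above every other group.

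Per kilobase of exon, taken over all annotated transcripts of a gene together, Adgra3 stood at 0.786 ± 0.0624 CPM per kb (SD, n = 5) with the empty vector and Pcdh7 at 1.41 ± 0.248. With G-NHA9 the levels were 2.66 ± 0.712 for Adgra3 and 6.21 ± 0.539 for Pcdh7. Ranked by level per kb among 17124 tested genes with an annotated exon length, Adgra3 moved from percentile 31.8 with the empty vector to 47.6 with G-NHA9, and Pcdh7 from 39.1 to 64.3. Both were thus middling transcripts in these cultures, with Pcdh7 above Adgra3 per kb of this length in every group. That order depends on the length used. The protein-coding transcript of Adgra3 has 4480 bases out of 8.11 kb of exon, and the longest of Pcdh7 has 8785 out of 10.60 kb. Levels per coding transcript were not compared.

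Against the empty vector, the fitted log2 fold change of Adgra3 was 1.76 with G-NHA9 (SE 0.20, a factor of 3.38) and 1.83 with G-NHA9-21FGAA (SE 0.20, a factor of 3.55). It was 1.33 with G-NHA9Midi, 1.01 with G-NHA9-DDNA, 0.95 with G-NHA9-8FA and 0.93 with G-NHA9Midi-21FGAA. Adgra3 thus had its greatest values with G-NHA9 and G-NHA9-21FGAA. For Pcdh7 the change was 2.14 with G-NHA9 (SE 0.16, a factor of 4.39) and 1.47 with G-NHA9Midi (SE 0.16, a factor of 2.76). It was 1.32 with G-NHA9-21FGAA, 0.93 with G-NHA9Midi-21FGAA, 0.86 with G-NHA9-8FA and 0.80 with G-NHA9-DDNA. These comparisons share the 5 control libraries.

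Being higher in all 6 constructs is what the choice required and is not a result. As background, 253 tested genes (1.47%) were past the threshold and higher in all 6 comparisons, with an adjusted p under 0.05 in edgeR's quasi-likelihood test, and 165 (0.961%) were lower in all 6. Genes past the threshold in either direction made up 32.1% of tested genes with G-NHA9, 26.6% with G-NHA9-8FA, 27.1% with G-NHA9-21FGAA, 40.5% with G-NHA9Midi, 16.9% with G-NHA9Midi-21FGAA and 17.2% with G-NHA9-DDNA. Those that were higher made up 16.9% of tested genes with G-NHA9, 13.4% with G-NHA9-8FA, 14.7% with G-NHA9-21FGAA, 20.5% with G-NHA9Midi, 9.59% with G-NHA9Midi-21FGAA and 9.85% with G-NHA9-DDNA. Those that were lower made up 15.2%, 13.2%, 12.5%, 20.0%, 7.32% and 7.35% in the same order. Every construct library was above every control library for 49 genes (0.285%). By the smallest of their 6 log2 fold changes, Adgra3 (0.93) ranked 21 and Pcdh7 (0.80) ranked 32 among the 253 genes, whose median was 0.45. Chromosome 5 held 12 of these 253 genes (4.74%), against 7.05% of all tested genes.

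The 15 pairs of constructs were then compared, with Benjamini-Hochberg adjustment over all tested genes within each pair. Adgra3 was past the threshold in 7 pairs and Pcdh7 in 9. The median tested gene was past it in 2 pairs, and 22.9% of genes were past it in at least as many pairs as Adgra3 and 11.7% in at least as many as Pcdh7. In these comparisons between 0.915% and 43.2% of all genes differed, so the share of genes called is given beside each pair.

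For Adgra3, G-NHA9 and G-NHA9-21FGAA formed the upper end of the order and did not differ from each other beyond their spread. The difference between them was 0.07 on the log2 scale, with a 95% interval from -0.31 to 0.46 and an adjusted p of 0.87, in a comparison that called 17.2% of genes. Below G-NHA9, Adgra3 was lower with G-NHA9-8FA (log2 difference -0.81, SE 0.19, adjusted p = 0.0038, with 14.5% of genes called). It was lower with G-NHA9Midi-21FGAA (-0.83, SE 0.19, adjusted p = 0.0011, 28.7% called) and with G-NHA9-DDNA (-0.74, SE 0.19, adjusted p = 0.0045, 22.1% called). All 5 libraries of G-NHA9-8FA and of G-NHA9-DDNA were below all 5 of G-NHA9, a separation found in 9.40% and 14.2% of genes. The size of these differences depended on the libraries. For G-NHA9-8FA it was -0.45 in libraries 1 to 3 and -1.28 in libraries 4 and 5. For G-NHA9-DDNA it was -0.42 and -1.10, and for G-NHA9Midi-21FGAA -0.72 and -0.91, each past the threshold. The difference from G-NHA9Midi was not past the threshold, at -0.43 with an interval from -0.82 to -0.04 and an adjusted p of 0.11 (19.7% called), and in libraries 4 and 5 alone it was -0.84 (adjusted p = 0.029).

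The 21FGAA group differed from the 4 groups below it. Adgra3 was higher with G-NHA9-21FGAA than with G-NHA9-8FA (log2 difference 0.88, SE 0.19, adjusted p = 5.9e-04, 32.4% of genes called), and the libraries did not overlap, as for 20.2% of genes. It was lower with G-NHA9Midi-21FGAA than with G-NHA9-21FGAA (-0.90, SE 0.19, adjusted p = 0.0063, 3.01% called). It was lower with G-NHA9-DDNA (-0.81, SE 0.19, adjusted p = 0.023, 1.04% called, with no overlap of libraries, as for 2.75% of genes) and with G-NHA9Midi (-0.50, SE 0.19, adjusted p = 0.038, 36.1% called) than with G-NHA9-21FGAA.
Of these, the difference from G-NHA9-8FA was 0.38 in libraries 1 to 3 and 1.51 in libraries 4 and 5, past the threshold in both. The difference from G-NHA9Midi rested on libraries 4 and 5: it was -0.02 (adjusted p = 0.89) in libraries 1 to 3, -0.24 (adjusted p = 0.29) without library 5 of G-NHA9-21FGAA and -0.46 (adjusted p = 0.084) without its library 4. It was also lost without any 1 of libraries 1 to 4 of G-NHA9Midi (adjusted p from 0.053 to 0.075) and with a sex-linked score as a covariate (-0.25, adjusted p = 0.26). The difference from G-NHA9-DDNA was -0.54 (adjusted p = 0.18) without library 5 of G-NHA9-21FGAA and -0.77 (0.068) without its library 4, and -0.80 (0.071) and -0.79 (0.054) without libraries 1 and 5 of G-NHA9-DDNA. In libraries 1 to 3 it was -0.35 (adjusted p = 0.085). In a fit to the compared groups only, the differences of G-NHA9-21FGAA from G-NHA9Midi-21FGAA, G-NHA9-DDNA and G-NHA9Midi had adjusted p-values of 0.12, 0.18 and 0.095. In libraries 4 and 5 alone, that from G-NHA9Midi-21FGAA was -1.14 (adjusted p = 0.089).

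At the lower end, Adgra3 with G-NHA9-8FA, G-NHA9-DDNA and G-NHA9Midi-21FGAA was not told apart, with log2 differences of 0.07 (G-NHA9-DDNA minus G-NHA9-8FA), -0.02 (G-NHA9Midi-21FGAA minus G-NHA9-8FA) and 0.09 (G-NHA9-DDNA minus G-NHA9Midi-21FGAA) and 95% intervals that together ran from -0.41 to 0.48. Their adjusted p-values were 0.82 (34.7% called), 0.95 (37.8% called) and 0.97 (0.915% called). G-NHA9Midi lay between. None of its libraries overlapped with G-NHA9-8FA or G-NHA9-DDNA, as for 5.25% and 27.9% of genes, but neither difference passed the threshold. Its differences were 0.38 from G-NHA9-8FA (interval -0.01 to 0.77, adjusted p = 0.32, 4.25% called), -0.31 for G-NHA9-DDNA against it (-0.70 to 0.08, adjusted p = 0.20, 40.7% called) and -0.40 for G-NHA9Midi-21FGAA against it (-0.79 to -0.01, adjusted p = 0.090, 43.2% called). Without library 5 of G-NHA9Midi-21FGAA the last difference was -0.57 (adjusted p = 0.016). In libraries 1 to 3, where the spread was smaller, the 3 differences were 0.35 (adjusted p = 0.025), -0.33 (0.016) and -0.63 (6.7e-05), and G-NHA9Midi-21FGAA was also below G-NHA9-8FA (-0.28, adjusted p = 0.047). The first 2 passed in fits to the compared groups only (adjusted p = 0.049 and 0.023), and the last 2 with the sex-linked score (-0.47, adjusted p = 0.021, and -0.55, adjusted p = 0.0061). The last also passed without library 5 of G-NHA9-21FGAA (adjusted p = 0.048), which changes only the shared estimate of spread and scaling.

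For Pcdh7, G-NHA9 was above each of the other 5 constructs with no overlap of libraries. Against G-NHA9 the log2 difference was -1.33 for G-NHA9-DDNA (SE 0.16, adjusted p = 1.1e-07, 22.1% of genes called) and -1.27 for G-NHA9-8FA (SE 0.16, adjusted p = 8.4e-07, 14.5% called). It was -1.20 for G-NHA9Midi-21FGAA (SE 0.16, adjusted p = 4.4e-07, 28.7% called), -0.82 for G-NHA9-21FGAA (SE 0.16, adjusted p = 2.6e-04, 17.2% called) and -0.67 for G-NHA9Midi (SE 0.16, adjusted p = 0.0023, 19.7% called). Such a separation was seen in 14.2%, 9.40%, 17.6%, 11.5% and 13.1% of genes in these pairs, in the same order. The call was lost in libraries 4 and 5 alone for G-NHA9-21FGAA (-0.60, adjusted p = 0.11), where only 2 libraries a group remained.

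Below G-NHA9, G-NHA9Midi and G-NHA9-21FGAA were not told apart for Pcdh7 (log2 difference 0.15, interval -0.17 to 0.47, adjusted p = 0.50, 36.1% called). In libraries 1 to 3 G-NHA9Midi was higher by 0.44 (adjusted p = 0.0068). G-NHA9Midi was above G-NHA9-8FA (0.60, SE 0.16, adjusted p = 0.021, 4.25% called). It was above G-NHA9Midi-21FGAA, with a difference of -0.53 (SE 0.16, adjusted p = 0.0063, 43.2% called), and above G-NHA9-DDNA, with a difference of -0.66 (SE 0.16, adjusted p = 0.0011, 40.7% called). G-NHA9-DDNA and G-NHA9Midi libraries did not overlap, as for 27.9% of genes. G-NHA9-21FGAA was above G-NHA9-8FA (0.46, SE 0.16, adjusted p = 0.026, 32.4% called).
The difference of G-NHA9-21FGAA from G-NHA9-8FA rested on libraries 4 and 5 of both groups. It was 0.09 (adjusted p = 0.61) in libraries 1 to 3, and its adjusted p was 0.10 and 0.052 without library 4 and library 5 of G-NHA9-21FGAA and 0.050 and 0.061 without library 4 and library 5 of G-NHA9-8FA. The difference of G-NHA9Midi from G-NHA9-8FA had an adjusted p of 0.058 without library 4 of G-NHA9-8FA and of 0.051 and 0.064 without libraries 1 and 3 of G-NHA9Midi. In libraries 4 and 5 alone, the differences of G-NHA9Midi from G-NHA9-8FA, G-NHA9Midi-21FGAA and G-NHA9-DDNA had adjusted p-values of 0.36, 0.61 and 0.14.

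The remaining pairs did not pass the threshold for Pcdh7. G-NHA9-DDNA was below G-NHA9-21FGAA in every library (-0.52, interval -0.84 to -0.19), a separation found in 2.75% of genes, but with an adjusted p of 0.14 in a comparison that called 1.04% of genes. G-NHA9Midi-21FGAA was below G-NHA9-21FGAA by -0.39 (interval -0.71 to -0.07, adjusted p = 0.20, 3.01% called), and by -0.57 (adjusted p = 0.026) without library 5 of G-NHA9Midi-21FGAA. G-NHA9-8FA, G-NHA9Midi-21FGAA and G-NHA9-DDNA differed by at most 0.13 in size, with intervals that together ran from -0.45 to 0.39. The adjusted p was 0.78 for G-NHA9Midi-21FGAA against G-NHA9-8FA (37.8% called), 0.80 for G-NHA9-DDNA against G-NHA9-8FA (34.7% called) and 0.93 for G-NHA9-DDNA against G-NHA9Midi-21FGAA (0.915% called).

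**Figure D2:**
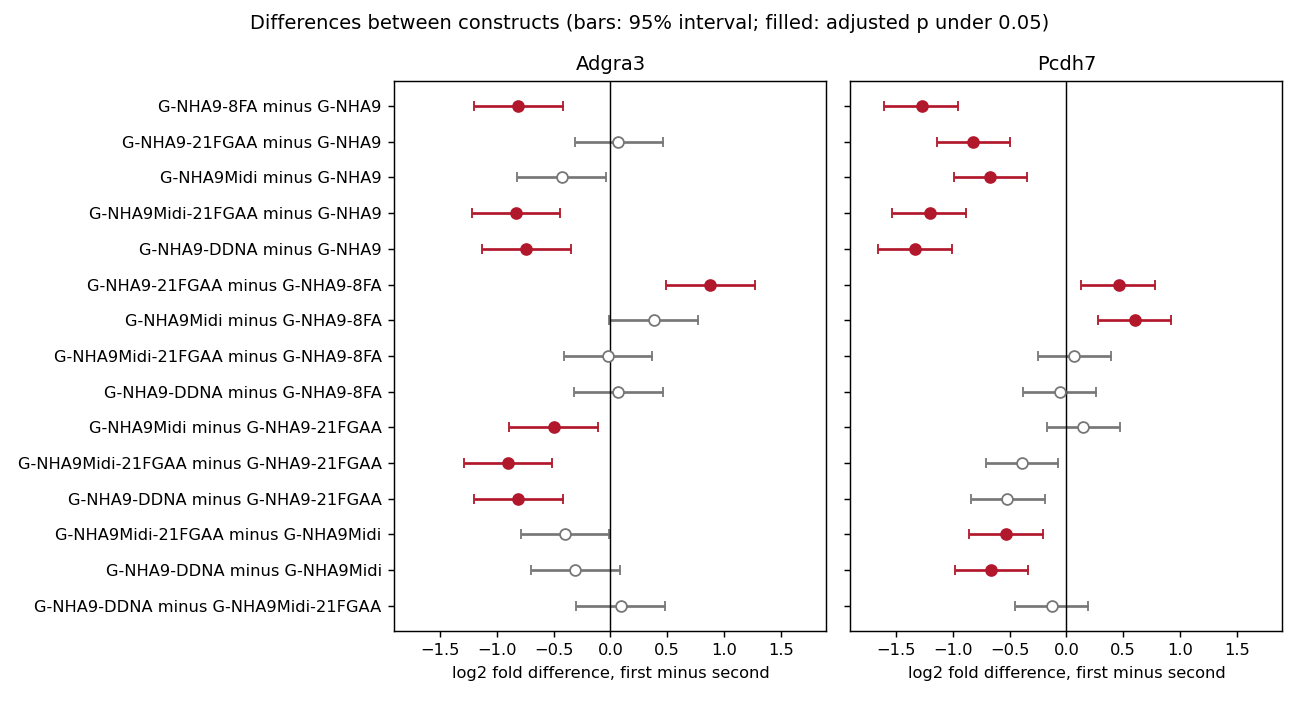
Log2 fold difference between each of the 15 pairs of constructs (first minus second, x axis) for Adgra3 and Pcdh7, with 95% intervals from the fit to all 35 libraries; filled red points have an adjusted p under 0.05. In the second row from the top, G-NHA9-21FGAA minus G-NHA9, the Adgra3 point is at 0.07 and the Pcdh7 point at -0.82.

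The same 4 pairs were called for both genes, all of them either 3 constructs against G-NHA9 (G-NHA9-8FA, G-NHA9Midi-21FGAA and G-NHA9-DDNA) or G-NHA9-21FGAA against G-NHA9-8FA, and each in the same direction. A further 3 pairs were called for Adgra3 only and 5 for Pcdh7 only, and 3 for neither. The effect of the 21FGAA change was set against the same change in the Midi construct by an interaction term. For Adgra3 it was 0.07 in the full-length construct and -0.40 in the Midi construct, a difference of 0.47 (SE 0.27, interval -0.08 to 1.02, adjusted p = 0.28, with 12.6% of genes called). In libraries 1 to 3 that difference was 0.56 (adjusted p = 0.015). For Pcdh7 the effects were -0.82 and -0.53, a difference of -0.28 (SE 0.22, interval -0.73 to 0.17, adjusted p = 0.47).

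The ratio of Pcdh7 to Adgra3 counts within a library does not depend on library size. Its median was 2.54 with the empty vector (range 1.73 to 2.81), 3.14 with G-NHA9 (2.36 to 3.97) and 1.87 with G-NHA9-21FGAA (1.10 to 2.19). The other groups had medians between 2.13 and 2.73. G-NHA9-21FGAA and G-NHA9-DDNA did not overlap with G-NHA9, with differences in mean log2 ratio of -0.85 and -0.64. In a two-sided exact permutation test of 252 regroupings, chosen after the values were seen, both gave p = 0.0079, the smallest that 5 against 5 libraries can give, and an adjusted p of 0.060 over the 15 pairs. Thus 0 of 15 pairs passed after adjustment.

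Across the 35 libraries the log2 CPM of Adgra3 and Pcdh7 had a Pearson correlation of 0.85 and a Spearman correlation of 0.90. These are descriptions over libraries that fall into groups and share their scaling, and they are not independent of the choice of both genes. Without the 2 libraries farthest from the Adgra3 median the Pearson correlation was 0.87, over the 30 construct libraries 0.73, and over deviations from the group means 0.52. Within groups of 5 it ran from -0.12 with the empty vector to 0.91 with G-NHA9-8FA. Library 5 of G-NHA9-21FGAA, with the highest Adgra3 value, had less Pcdh7 than its library 4.

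**Figure D3:**
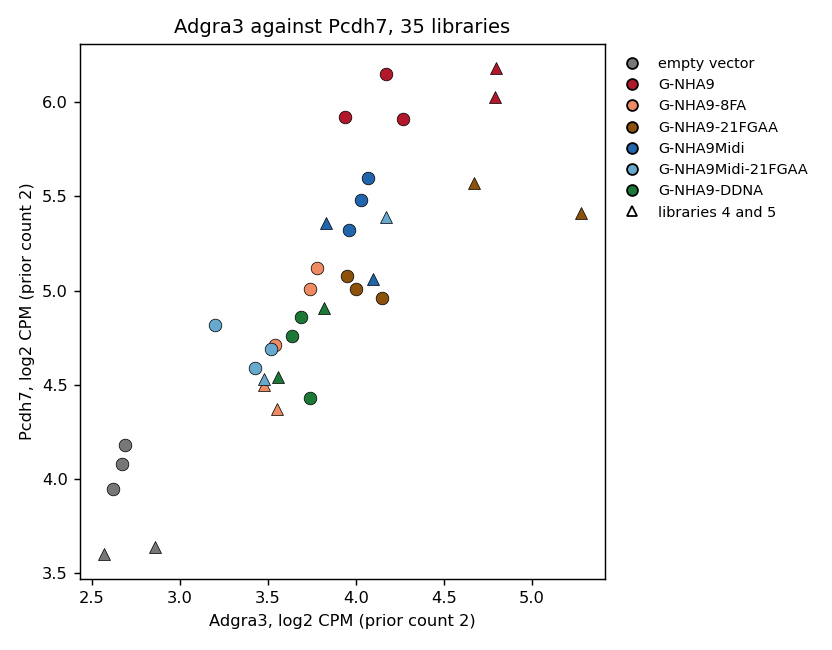
Log2 CPM of Adgra3 (x axis) against Pcdh7 (y axis) in each of the 35 libraries, coloured by group, with triangles for libraries 4 and 5. Control libraries lie at the lower left and G-NHA9 libraries at the top, while library 5 of G-NHA9-21FGAA lies farthest right at 5.28.

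Among the 12774 tested genes whose mean CPM was 1 or more, Pcdh7 ranked 24 in likeness to Adgra3 and Adgra3 ranked 12 in likeness to Pcdh7, by Pearson correlation of log2 CPM over the 35 libraries. The 5 genes most like Adgra3 were Nedd4 (0.92), a ubiquitin ligase, Akap1 (0.90), a kinase anchor of the outer mitochondrial membrane, Kcnq5 (0.89), a potassium channel, Rasl11a (0.89), a small GTPase, and D5Ertd605e (0.88). Nedd4 is by far the most abundant of them, at 163 ± 23.9 CPM (SD, n = 5) with the empty vector and 460 ± 84.3 CPM with G-NHA9. Rasl11a is scarce, at 0.248 ± 0.0744 and 2.60 ± 0.839 CPM. The 5 genes most like Pcdh7 were Neto2 (0.90), an auxiliary subunit of kainate receptors, Zfp820 (0.90), a zinc finger gene, Ssbp2 (0.89), a single-stranded DNA-binding partner of LDB1 complexes, Map9 (0.89), a microtubule-associated protein, and Psd3 (0.89), an exchange factor for ARF6. Neto2 went from 3.08 ± 0.675 CPM with the empty vector to 38.4 ± 8.04 CPM with G-NHA9, and stood at 5.48 ± 1.99 CPM with G-NHA9-DDNA. The median absolute correlation over all candidates was 0.28 for Adgra3 and 0.27 for Pcdh7.
These genes were picked for their likeness in these same libraries, so their shared pattern is a description and not a result. The ranking depends on the measure. Of the 5 genes, Spearman correlation kept 1 for Adgra3 and 3 for Pcdh7, and correlation over the 7 group means kept 1 for each. Rasl11a and D5Ertd605e are on chromosome 5 as well.

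**Figure D4:**
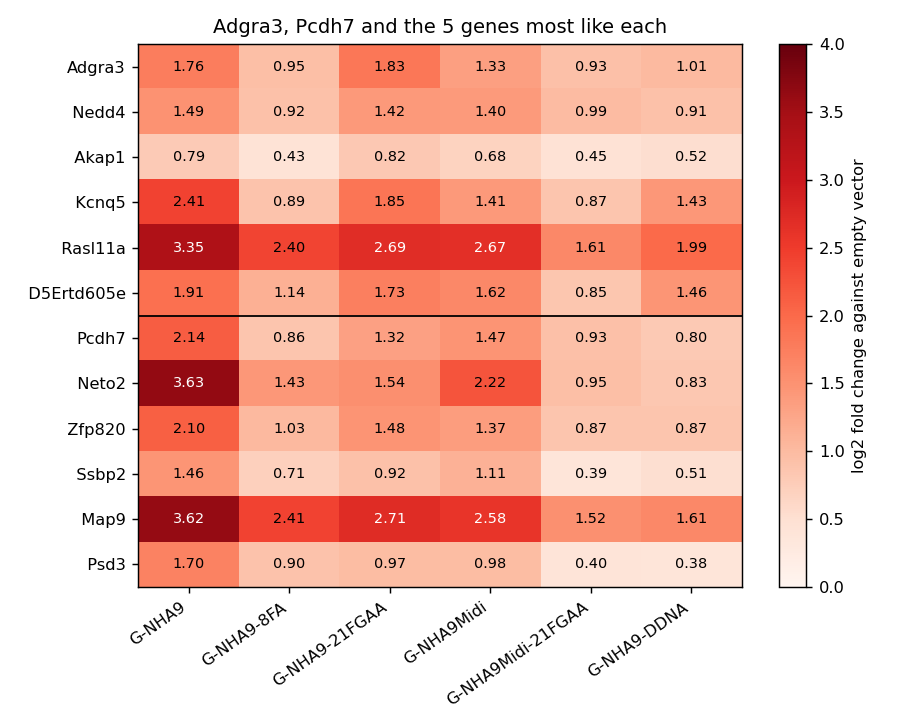
Log2 fold change against the empty vector (colour and printed value) for Adgra3, Pcdh7 and the 5 genes most like each over 35 libraries, with constructs in columns. Within the Adgra3 block G-NHA9 and G-NHA9-21FGAA have the highest values, 1.76 and 1.83 for Adgra3, while within the Pcdh7 block G-NHA9 stands above the other columns in every row. The genes were picked for likeness in these same libraries, so a shared order of columns follows from the choice.

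The introns of Pcdh7 carry 14 annotated genes on the same strand that share no exon base with it. Their summed level went the way of the Pcdh7 row. It was 1.40 ± 0.596 CPM (SD, n = 5) with the empty vector, 6.67 ± 1.44 with G-NHA9, 3.92 ± 0.385 with G-NHA9Midi and 3.65 ± 0.813 with G-NHA9-21FGAA. It was 3.13 ± 0.828 with G-NHA9-8FA, 2.45 ± 0.967 with G-NHA9-DDNA and 2.27 ± 1.12 with G-NHA9Midi-21FGAA. In libraries made from total RNA, reads in introns can come from unspliced Pcdh7 transcripts, and these rows cannot be told apart from them. The antisense transcript 4932441J04Rik held few counts, 6 to 51 in a library, or 1.17% to 2.02% of the Pcdh7 counts in the group means. Since the strand setting of the counting is not known, reads of the 2 strands over their shared exon bases cannot be told apart.

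Genes around both were examined as well, from 1 Mb outside Adgra3 to 1 Mb outside Pcdh7. Of 139 genes there, 32 were tested, and 21 of them (65.6%) changed against the empty vector in at least 1 construct, beside 60.1% of all tested genes. Of the 32, 10 overlap Pcdh7, and all 10 were past the threshold and higher with G-NHA9, so they are part of the 21. The 65.6% is therefore not a share of genes apart from Pcdh7. Counts of the 10 cannot be told apart from those of Pcdh7 transcripts, which were chosen for being higher, so they are given as a description. Those past the threshold and higher numbered 10 of 13 with G-NHA9, 4 of 9 with G-NHA9-8FA, 6 of 8 with G-NHA9-21FGAA, 7 of 13 with G-NHA9Midi, 1 of 1 with G-NHA9Midi-21FGAA and 0 of 1 with G-NHA9-DDNA. Gm42635, which lies in an intron of Pcdh7, had a log2 fold change of 2.05 with G-NHA9 (SE 0.31). Genes called numbered 13 with G-NHA9 among all 32 (40.6%, beside 32.1% of all genes), of which 10 overlap Pcdh7, and 3 with G-NHA9-DDNA (9.38%, beside 17.2%). The other 22 tested genes had a median log2 fold change of 0.03 with G-NHA9 and of 0.23 with G-NHA9Midi. Of these 22, 3 rose and 0 fell with G-NHA9, where 32.1% of all genes were called. With G-NHA9Midi 6 rose and 0 fell (40.5% of all genes called), and with G-NHA9-8FA 5 rose and 0 fell (26.6%). With G-NHA9-21FGAA 2 rose and 1 fell (27.1%), with G-NHA9Midi-21FGAA 0 rose and 1 fell (16.9%), and with G-NHA9-DDNA 1 rose and 2 fell (17.2%). None of the 32 was higher in all 6 constructs. Ccdc149, a coiled-coil gene, rose with G-NHA9-DDNA by 0.87 (SE 0.21, adjusted p = 0.0049), and Tbc1d19, which encodes a TBC-domain protein, rose with G-NHA9Midi by 0.37 (SE 0.15, adjusted p = 0.042). Ccdc149 also rose past the threshold with G-NHA9 (0.70), G-NHA9-8FA (0.70) and G-NHA9Midi (0.56). The Tbc1d19 call was lost without any 1 of empty vector libraries 3 to 5 or G-NHA9Midi libraries 1 to 4 (adjusted p from 0.052 to 0.14). It was lost as well with RLE factors (0.051), DESeq2 (0.054), a fit to the compared groups (0.070), the sex-linked score (0.086), no filter (0.094), only mice labelled 8 weeks (0.22) and libraries 4 and 5 alone (0.35). That of Ccdc149 was lost in libraries 4 and 5 alone (0.49, adjusted p = 0.58). Rbpj, the DNA-binding effector of Notch signalling, fell with G-NHA9Midi-21FGAA by -0.56 (SE 0.12, adjusted p = 0.0024), though the value was -0.32 (adjusted p = 0.18) in libraries 1 to 3 and -0.40 (adjusted p = 0.056) in mice labelled 8 weeks old. Ppargc1a, a metabolic coactivator outside the naming rule for its low level and named after its values were seen, had the largest change with G-NHA9 among the tested genes between Adgra3 and Pcdh7, 4.84 (SE 0.51, adjusted p = 7.4e-09), from 0.0365 to 1.13 CPM.

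**Figure D5:**
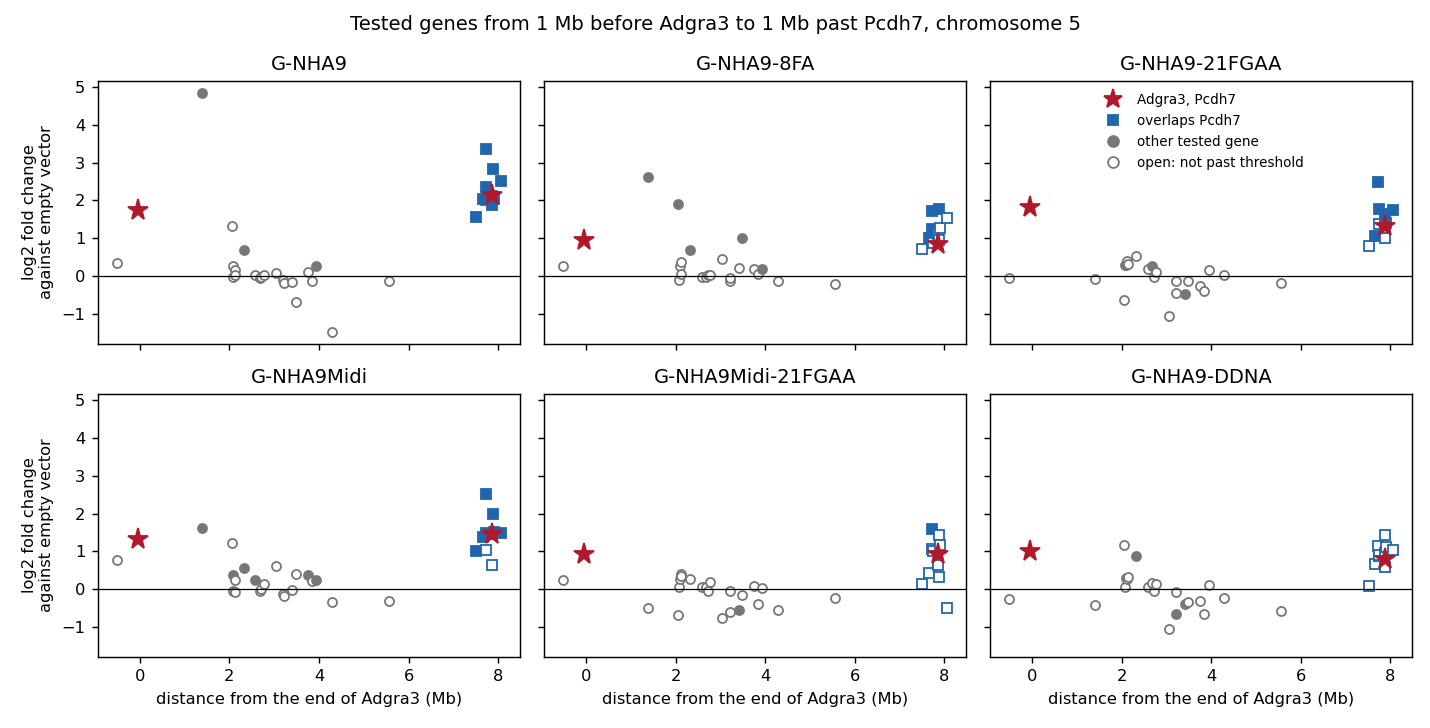
Log2 fold change against the empty vector (y axis) of the 32 tested genes from 1 Mb before Adgra3 to 1 Mb past Pcdh7, by distance from the end of Adgra3 in Mb (x axis), with 1 panel for each construct; stars are Adgra3 and Pcdh7, squares are genes that overlap Pcdh7 and filled symbols have an adjusted p under 0.05. Most genes between the stars lie near 0, and squares lie around the Pcdh7 star.

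Relatives of both genes were counted from lists of gene families. Of 29 other adhesion G protein-coupled receptors 16 were tested, and 13 of them (81.2%) changed in at least 1 construct, beside 60.1% of all tested genes, with none higher in all 6. With G-NHA9, 6 rose and 1 fell (43.8% called, beside 32.1% of all genes), and the median log2 fold change was 0.63 against 0.01 for all genes. With G-NHA9Midi, 4 rose and 4 fell (50.0% called, beside 40.5% of all genes), and the median was -0.19. Adgrl4, a receptor of endothelial cells, rose with G-NHA9 by 4.49 (SE 0.46, adjusted p = 4.3e-09) from a low level. It also rose with G-NHA9Midi (4.38) and G-NHA9-8FA (2.38) and fell with G-NHA9Midi-21FGAA (-2.19), all past the threshold. Adgrl2, a latrophilin, fell with G-NHA9Midi by -2.54 (SE 0.28, adjusted p = 6.7e-09), and its relative Adgrl1 fell by -1.45 (SE 0.37, adjusted p = 0.0020). Adgrl2 also fell past the threshold with G-NHA9 (-2.26), G-NHA9-8FA (-1.72) and G-NHA9-21FGAA (-0.91). Adgrl1 also fell with G-NHA9-8FA (-1.37, adjusted p = 0.0058), but rose with G-NHA9-21FGAA (1.19, adjusted p = 0.012) and G-NHA9Midi-21FGAA (1.17, adjusted p = 0.022). Adgrg7 rose with G-NHA9-21FGAA by 1.88 (SE 0.25, adjusted p = 2.2e-06). It was past the threshold and higher with every other construct as well, by 0.99 to 1.67, except G-NHA9 (0.47, adjusted p = 0.14).

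Of 20 planar cell polarity genes 17 were tested and 11 (64.7%) changed in at least 1 construct, close to the 60.1% of all tested genes. With G-NHA9, 2 rose and 3 fell (29.4% called, beside 32.1% of all genes). With G-NHA9-21FGAA, 3 rose and 1 fell (23.5%, beside 27.1%), with a median of 0.06. Fzd7, a Frizzled receptor, fell with G-NHA9Midi by -1.12 (SE 0.14, adjusted p = 6.7e-08), and Daam1, a formin that acts with Dishevelled, fell by -1.10 (SE 0.13, adjusted p = 2.1e-08). Both also fell past the threshold with G-NHA9 (-0.99 and -0.47) and G-NHA9-8FA (-0.90 and -0.86), and Fzd7 with G-NHA9-21FGAA (-0.46). Of the Prickle genes, core polarity components, Prickle2 fell with G-NHA9-8FA by -1.75 (SE 0.34, adjusted p = 1.6e-04). It fell further, to a low level, with G-NHA9 (-2.81, SE 0.37, adjusted p = 3.7e-07) and G-NHA9Midi (-3.32, SE 0.38, adjusted p = 1.6e-08). Prickle1 rose with G-NHA9-21FGAA by 1.29 (SE 0.23, adjusted p = 1.1e-04). It also rose with G-NHA9Midi-21FGAA (1.00, adjusted p = 0.0034), G-NHA9-DDNA (0.94, adjusted p = 0.0052) and G-NHA9 (0.64, adjusted p = 0.032). Dlg1, the scaffold that binds Adgra3, was at 51.2 ± 2.58 CPM (SD, n = 5) with the empty vector. It rose by 0.24 with G-NHA9Midi-21FGAA (SE 0.08, adjusted p = 0.038) and by 0.24 with G-NHA9-DDNA (SE 0.08, adjusted p = 0.042), and its change with G-NHA9 was 0.07 (SE 0.08, adjusted p = 0.54).

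Among the listed non-clustered protocadherins, Pcdh7 was almost alone in these cultures, and clustered protocadherins were not examined. Of 11 other non-clustered protocadherins only Pcdh1 and Pcdh15 were abundant enough to test, at 0.720 and 0.140 CPM with the empty vector. Pcdh1 fell with G-NHA9-8FA by -1.77 (SE 0.42, adjusted p = 0.0018) and with G-NHA9Midi by -2.54 (SE 0.45, adjusted p = 2.7e-05), and 0 of the 2 rose with any construct. Of 16 cadherins and catenins 9 were tested and 8 (88.9%) changed in at least 1 construct, beside 60.1% of all tested genes. With G-NHA9, 0 rose and 5 fell (55.6% called, beside 32.1% of all genes), and with G-NHA9Midi, 0 rose and 5 fell (55.6%, beside 40.5%). With G-NHA9-8FA 0 rose and 4 fell (44.4%, beside 26.6%), and with G-NHA9-DDNA 0 rose and 1 fell (11.1%, beside 17.2%). Some rose with the 21FGAA constructs: 1 rose and 3 fell with G-NHA9-21FGAA (44.4%, beside 27.1%). With G-NHA9Midi-21FGAA 2 rose and 1 fell (33.3%, beside 16.9%). Cdh1, which encodes E-cadherin, fell with G-NHA9Midi by -1.09 (SE 0.19, adjusted p = 2.1e-05). Ctnnb1, which encodes beta-catenin, fell by -0.72 (SE 0.11, adjusted p = 4.0e-06) and Jup, or plakoglobin, by -1.32 (SE 0.23, adjusted p = 1.8e-05) with the same construct, and Cdh17 fell with G-NHA9 by -0.76 (SE 0.28, adjusted p = 0.035). Cdh1 and Ctnnb1 also fell past the threshold with G-NHA9 (-0.71 and -0.55) and G-NHA9-8FA (-0.83 and -0.62). Ctnnb1 fell with G-NHA9-21FGAA (-0.46) and G-NHA9-DDNA (-0.35) too, and Jup with G-NHA9-21FGAA (-0.67). The Cdh17 call was lost without any 1 of empty vector libraries 1 to 3 or G-NHA9 libraries 4 and 5 (adjusted p from 0.050 to 0.13), with library sizes without TMM (0.077) and in a fit to the compared groups (0.13).

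Among the 8 tested genes for SET, protein phosphatase 1 and the core of protein phosphatase 2A, 6 (75.0%) changed in at least 1 construct, beside 60.1% of all tested genes. Set, which encodes the protein that binds the Pcdh7 tail, rose in all 6 constructs, as did 1.47% of tested genes. Its largest change was with G-NHA9Midi, 0.87 (SE 0.15, adjusted p = 1.2e-05), and its smallest was 0.48 with G-NHA9-8FA. Ppp1cb, a catalytic subunit of phosphatase 1, rose with G-NHA9-8FA by 0.50 (SE 0.12, adjusted p = 0.0015), and by 0.42 (adjusted p = 0.052) in libraries 1 to 3. Ppp2cb, a catalytic subunit of phosphatase 2A, rose with G-NHA9Midi by 0.42 (SE 0.08, adjusted p = 3.9e-05), and its scaffold Ppp2r1b rose with G-NHA9Midi-21FGAA by 0.41 (SE 0.08, adjusted p = 0.0013). Past the threshold, Ppp1cb also rose with G-NHA9 (0.37) and G-NHA9Midi (0.41), and Ppp2cb with G-NHA9-8FA (0.21). Ppp2r1b rose with G-NHA9-21FGAA (0.34) and G-NHA9-DDNA (0.35) as well.

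The make-up of the cultures moved with the same groups and its part in the results above was not tested. The labelled cells were checked against 12 stem and progenitor markers, and all 12 were abundant enough to test. Their summed level was 338 to 485 CPM with the empty vector, 755 to 926 with G-NHA9 and 703 to 1030 with G-NHA9-21FGAA, the groups with the most Adgra3, and 406 to 537 with G-NHA9-8FA and 429 to 513 with G-NHA9Midi. With G-NHA9-DDNA it was 447 to 687. Single markers went both ways. Past the threshold, 7 rose and 1 fell with G-NHA9 (32.1% of all genes called), and 8 and 0 with G-NHA9-21FGAA (27.1%). The counts were 4 and 3 with G-NHA9-8FA (26.6%), 5 and 4 with G-NHA9Midi (40.5%), 4 and 0 with G-NHA9Midi-21FGAA (16.9%) and 5 and 1 with G-NHA9-DDNA (17.2%). From empty vector to G-NHA9, Cd34 went from 36.9 to 220 CPM and Kit from 83.4 to 45.2 CPM. The sum was also higher in libraries 4 and 5, at 926 and 852 CPM against 755 to 802 with G-NHA9 and at 931 and 1030 against 703 to 709 with G-NHA9-21FGAA. In G-NHA9Midi-21FGAA it was 391 to 863 CPM in libraries 1 to 4 and 977 in library 5, the library with the most Adgra3 and Pcdh7 of its group. Library 4 of that group, with 863 CPM of these markers, had Adgra3 at 11.1 CPM and Pcdh7 at 23.0 CPM.
Markers of other cells differed between the groups as well. The sum of 10 erythroid markers was 4.21 to 33.4 CPM with G-NHA9-8FA and G-NHA9Midi and 119 to 1330 CPM in the other groups. The sum of 10 mast cell and basophil markers was 489 to 1020 CPM with G-NHA9, G-NHA9-8FA and G-NHA9Midi and 1300 to 6410 in the others. The sum of 12 neutrophil markers ran from 5640 to 34500 CPM, that of 10 macrophage markers from 1540 to 3950, that of 7 eosinophil markers from 39.9 to 2490 and that of 8 megakaryocyte markers from 146 to 2460. The sum of 10 stromal markers was 52.9 to 74.9 CPM with G-NHA9 and 5.07 to 23.0 elsewhere. Of it Lepr made 54.2 CPM and Pdgfrb 8.60 CPM with G-NHA9, against 3.68 and 0.882 CPM with the empty vector. Pdgfrb rose in all 6 constructs, by 3.30 with G-NHA9 (SE 0.38, adjusted p = 3.6e-08), and Pdgfra fell with G-NHA9 by -2.49 (SE 0.40, adjusted p = 1.1e-05). Of the list, 5 were too scarce to test, and Col3a1, Cxcl12, Dcn and Lum held at most 3 counts in each G-NHA9 library. The sum of 8 endothelial markers was 19.9 to 115 CPM. Kdr, at 52.5 CPM with the empty vector and 16.7 CPM with G-NHA9, and Flt1, at 14.9 and 16.7 CPM, made most of it. Emcn, at 0.0107 CPM with the empty vector, was at 0.411 CPM with G-NHA9 and 0.812 CPM with G-NHA9-21FGAA, and Cdh5 and Sox17 were too scarce to test. The sum of 10 lymphocyte markers was 1.97 to 8.17 CPM, with Cd8a at no more than 3 counts in every library.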

How the data were processed

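Mouse lin- HSPC RNA-seq libraries were made with a stranded total RNA kit and sequenced in paired reads. The authors deposited raw read counts per gene as whole numbers, without normalization. Per the labels' processing notes, STAR 2.7.0d, HTSeq 0.11.2 and DESeq2 were used with mm10. The strand setting and annotation of the counting are not given in the sources used here.

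The analysis used edgeR 4.0.16, with limma 3.58.1, under R 4.3.3. Figures were drawn with matplotlib 3.10.9 under Python 3.11.15. After filterByExpr (17166 genes, 99.96% of counts) and TMM scaling, glmQLFit was fitted to all 35 libraries with a mean per group, and glmQLFTest was run for each pair of constructs, the interaction and each construct against the empty vector, with Benjamini-Hochberg adjustment within each comparison and a threshold of 0.05. Standard errors were taken as the absolute log2 fold change over the square root of F. Log2 CPM used a prior count of 2. Likeness was measured over genes whose mean CPM was 1 or more. In the counts, 99.5% of identifiers were found in GENCODE M21 without their version and 88.3% with it. RefSeq promoter windows matched both genes.

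The members and lists were chosen with earlier results of these data known. Named genes were Adgra3 and Pcdh7, up to 4 per list or neighbourhood with the largest change past the threshold whose mean CPM was 1 or more, and the 5 most like each. Libraries within a group differed by more than sampling noise in all 70 pairs (chi-square divided by its degrees of freedom was 22.5 or more). Same-numbered libraries of different groups deviated together with a mean correlation of 0.23, against -0.06 for other numbers, and all 5 pairs exceeded 0.1 in 5 of the 15 construct pairs (G-NHA9-21FGAA, G-NHA9Midi-21FGAA and G-NHA9-DDNA against G-NHA9, and G-NHA9Midi-21FGAA against G-NHA9-21FGAA and G-NHA9-DDNA), where the number was taken to pair libraries. No call changed with the block in these pairs. The alternatives were library sizes without TMM, RLE factors, other filters, the replicate block, a sex-linked score, a fit to the compared groups, DESeq2 1.42.0, other ages removed, and each library left out. Fits to libraries 1 to 3 and to libraries 4 and 5 were added after seeing the data. The procedure was tested on simulated data.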

Additional observations from a re-analysis of the deposited data

Results flagged for a closer look

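In the G-NHA9Midi-21FGAA group, library 5 stood apart for both genes. Adgra3 was at 18.0 CPM there, against 9.17 to 11.4 CPM in the other 4 libraries, and its gap to the nearest of them was 0.744 of the range of the group. Pcdh7 was at 41.9 CPM, against 23.0 to 28.2 CPM, with a gap of 0.724 of the range. Both exceed Dixon's 95% critical value of 0.710 for 5 samples. Of 14 groups of values examined, these 2 were past it, where chance gives about 1 in 20. Both come from the same library, and the 2 genes had a Pearson correlation of 0.81 in this group, so they are not separate events. Without that library the group means were 10.6 ± 1.01 CPM for Adgra3 and 25.2 ± 2.28 CPM for Pcdh7 (SD over the 4 other libraries). The same library also had the highest summed level of stem and progenitor markers in its group, 977 CPM against 391 to 863, and the part of that in these values was not tested.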

How the results depend on the processing

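Under 9 alternatives, under 2 more chosen after seeing the data (libraries 1 to 3, and libraries 4 and 5), and with each of 35 libraries left out in turn, no called value changed its direction. Of 242 counts and values recomputed under the 11 alternatives, 224 stayed on their side of the threshold or near their value, and of 770 with a library left out, 768 did. A count was taken as near even when it moved somewhat, as with Adgra3 pairs from 7 to 5 with a library left out. Calls of Adgra3 and Pcdh7 in single construct pairs are not among these values. Of 330 such calls under the alternatives 307 stayed, and of 1050 with a library left out 1030 did. Adgra3 differed in 7 construct pairs with no TMM, RLE factors, both filters, DESeq2 and the age restriction, in 8 with the sex-linked score and in 6 in fits to the compared groups only, and Pcdh7 in 9 under all of these. With the replicate block the counts were 8 and 9: the call gained was Adgra3 in G-NHA9Midi-21FGAA against G-NHA9Midi (-0.43, adjusted p = 0.032, edgeR's quasi-likelihood test), a pair in which the number was not taken to pair the libraries, and no other call for Adgra3 or Pcdh7 changed with it. Changed protocadherins other than Pcdh7 numbered 2 with the block, 2 with DESeq2, 3 without a filter and 0 with a minimum mean of 1 CPM, beside 1. Changed genes near Adgra3 and Pcdh7 numbered 9 with that minimum, which leaves fewer genes to test, and 10 in fits to the compared groups only, beside 21, and 12 in libraries 4 and 5. In libraries 1 to 3, Adgra3 differed in 9 pairs, its interaction was 0.56 (adjusted p = 0.015), its log2 fold change against the empty vector was 1.41 with G-NHA9-21FGAA, and that of Pcdh7 was 0.97 with G-NHA9-21FGAA and 0.65 with G-NHA9Midi-21FGAA. In libraries 4 and 5, Adgra3 stood at 2.09 with G-NHA9 and 2.31 with G-NHA9-21FGAA, Pcdh7 at 2.49 with G-NHA9, 1.89 with G-NHA9-21FGAA, 1.42 with G-NHA9Midi-21FGAA and 1.12 with G-NHA9-DDNA, and Pcdh7 differed in 5 pairs, with fewer libraries. The fits to fewer libraries or genes have less to test by construction, and the cause of the other changes was not tested.

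With 1 library left out, the pairs called ran from 5 to 8 for Adgra3 and from 7 to 10 for Pcdh7, and the interaction from 0.20 to 0.67 for Adgra3 and from -0.38 to -0.09 for Pcdh7. Against the empty vector, Adgra3 ran from 1.64 to 1.85 with G-NHA9, 0.89 to 0.98 with G-NHA9-8FA, 1.57 to 1.95 with G-NHA9-21FGAA, 1.29 to 1.36 with G-NHA9Midi, 0.76 to 1.02 with G-NHA9Midi-21FGAA and 0.99 to 1.06 with G-NHA9-DDNA, and Pcdh7 from 2.06 to 2.21, 0.75 to 0.93, 1.22 to 1.41, 1.39 to 1.56, 0.77 to 1.02 and 0.74 to 0.88 in that order. Changed protocadherins ran from 1 to 2, with 2 without empty vector library 3 and without G-NHA9Midi-21FGAA library 1. Adgra3 and Pcdh7 held at least 192 counts in each library, and the parts of depth and of the spread between libraries in what could be called were not compared. The labels do not say what the library numbers stand for.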
